A study of Mus musculus with 24 samples.

Results

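The cytosolic ribosomal protein genes of mouse code for the proteins that join ribosomal RNA in the large (Rpl) and small (Rps) subunits of the ribosome. They were chosen by gene symbol alone, as symbols of the Rpl and Rps series plus the stalk proteins Rplp0, Rplp1 and Rplp2 and the small subunit protein Rpsa, without pseudogenes, S6 kinases and Rps19-binding proteins. The rule gave 85 genes of 24454 in the deposited count table, 52 of the large and 33 of the small subunit. It also admits paralogues such as Rpl7l1, Rpl22l1, Rps27l, Rpl3l, Rpl39l and Rpl10l, which are related to a core protein by sequence. Of the 85, 84 passed the filter on low counts over all libraries, and Rpl10l, with at most 0.0662 CPM (counts scaled to equal library size) in any library, did not.

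RNA came from bone marrow of C57BL/6N mice given tamoxifen for 5 days and sorted 12 weeks later. Tamoxifen is listed for all groups, and it switches on Cre only in lines where Cre is of the inducible kind. The sorted populations were LTHSC (long-term blood stem cells), preMegE (progenitors of the megakaryocyte and erythroid lines) and MkP (progenitors of megakaryocytes, the cells that make platelets). The genotype called KI here is a Scl-Cre line with a knock-in of mouse Jak2, E12 is a Scl-Cre line labelled Exon12, and VF is a Vav1-Cre line labelled VF. Jak2 is the kinase through which many blood cytokine receptors signal. There were 3 libraries in each of 8 groups, with no E12 group of preMegE analysed here. The labels do not say which line is unmutated, and the Cre driver changes with VF, so driver and allele cannot be told apart. Any difference in when Cre acted goes with the driver. Replicates are not stated to be separate animals, so the p-values measure only the spread between these libraries. In bulk RNA, fewer cells of a type and less RNA per cell cannot be told apart.

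Ribosomal proteins are made in near-equal numbers, since each mature ribosome holds a single copy of most of them. Their mRNAs begin with a C followed by pyrimidines (the 5′ TOP sequence), through which mTOR signalling and Larp1 control their translation. Loss of a single copy of several of these genes causes Diamond-Blackfan anaemia, in which erythroid progenitors fail while other blood lines are largely spared. Stem cells of the marrow are known for a low rate of protein synthesis.

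RefSeq promoter windows of GRCm38.p6, from 250 bases before to 50 bases after the transcription start, were matched for 64 of the 85 genes, which gave 76 windows. The ETS core CCGGAAG, searched on both strands, was found in 27 of the 76 windows (35.5%), against 8.86% of all 32851 RefSeq windows. A C at the start followed by 4 pyrimidines, read on the gene's strand, occurred in 18.4% against 2.51% of all windows. CTTTC between 20 bases before and 30 after the start, also on the gene's strand, occurred in 28.9% against 6.57%. The YY1 motif AAGATGGC on both strands occurred in 10.5% against 2.75%. TATAAA (10.5% against 13.6%) and CCAAT (28.9% against 37.4%), each on both strands, occurred in a smaller share of these windows than of all, and the E-box CACGTG in 10.5% against 7.15%. The 80 bases from 60 before to 20 after the start are given for the genes that lie at both ends of the differences described further on. Rpl35, Rpl38, Rps27, Rps28 and Rpl41 had the largest excess in 3 of the libraries, Rpl4 and Rpl7l1 varied little, Rps10 is a Diamond-Blackfan gene, and Rpl22l1 is a paralogue. Capitals mark CCGGAAG or its complement CTTCCGG, and CTTTC on the gene's strand. A match is a description of letters and not a binding site.
Rpl35: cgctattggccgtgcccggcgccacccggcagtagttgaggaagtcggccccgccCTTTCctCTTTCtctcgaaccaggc
Rpl38: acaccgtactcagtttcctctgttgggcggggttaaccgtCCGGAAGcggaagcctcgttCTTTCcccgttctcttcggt
Rps27: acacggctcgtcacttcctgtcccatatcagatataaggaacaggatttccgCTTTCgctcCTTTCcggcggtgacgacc
Rps28: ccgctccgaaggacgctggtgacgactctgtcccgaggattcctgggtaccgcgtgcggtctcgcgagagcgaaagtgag
Rps10: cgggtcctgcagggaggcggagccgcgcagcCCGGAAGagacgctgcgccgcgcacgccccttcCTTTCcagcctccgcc
Rpl41: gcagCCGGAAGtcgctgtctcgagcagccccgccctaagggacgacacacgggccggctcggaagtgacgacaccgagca
Rpl4: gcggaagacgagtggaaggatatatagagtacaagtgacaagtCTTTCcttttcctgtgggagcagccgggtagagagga
Rpl7l1: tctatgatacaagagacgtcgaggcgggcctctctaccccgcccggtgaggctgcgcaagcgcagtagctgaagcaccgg
Rpl22l1: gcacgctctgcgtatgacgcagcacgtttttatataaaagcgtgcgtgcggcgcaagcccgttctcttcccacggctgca

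On GRCm38.p6 these stretches lie at chr2:39005112-39005191 on the minus strand for Rpl35, chr11:114668520-114668599 on the plus strand for Rpl38, and chr3:90213629-90213708 on the minus strand for Rps27. Rps28 is at chr17:33824543-33824622 and Rps10 at chr17:27635225-27635304, both on the minus strand. Rpl41 is at chr10:128549149-128549228 on the minus strand and Rpl4 at chr9:64173327-64173406 on the plus strand. The paralogues are at chr17:46782637-46782716 on the minus strand for Rpl7l1 and chr3:28805448-28805527 on the plus strand for Rpl22l1. The members are spread over the genome, with 14 on chromosome 7, 8 on chromosome 17 and none on chromosome 19.

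Total counts were 10357597 to 29688389 per library, and 13237 to 16006 genes were detected. Jak2, the gene the lines are built on, was at 85.96 to 104.6 CPM in LTHSC VF against 40.93 to 66.21 in KI, and its count does not tell an allele apart. In 4 libraries the TMM scaling factor within the population was far below the rest, at 0.754 in LTHSC E12 4, 0.589 in preMegE KI 1, 0.585 in MkP KI 5 and 0.530 in MkP KI 6, against 0.990 to 1.231 in the other 20. These 4 libraries are called the libraries that stand apart, and results that rest on them are given with and without them. preMegE KI 1, MkP KI 5 and MkP KI 6 had 13912, 13237 and 13660 genes detected, against 14239 to 16006 in the other 20. LTHSC E12 4 had 14961 genes detected, and MkP KI 5 had the lowest total count, 10357597. LTHSC E12 4 also held 28346 CPM in 14 neutrophil and monocyte markers, against 807 to 3489 in the other LTHSC libraries. The other 3 held 4902 to 6609 CPM summed over 15 lymphoid markers, against 353 to 1412 in the remaining preMegE and MkP libraries. Only 12, 8 and 9 of these markers were above 0 in preMegE KI 1, MkP KI 5 and MkP KI 6, so part of the list carries the sums. Whether cells of these types were present, and their part in the results, was not tested. The 16 stem cell markers summed to more CPM in each LTHSC library other than E12 4 (2035) than in any preMegE or MkP library (at most 2258), and the 16 megakaryocyte markers to more in each MkP library (4414 or above) than elsewhere (at most 3535).

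The ribosomal protein genes took a small part of each library. In LTHSC they held 1.18 to 1.91% of all counts in 8 libraries, and 2.99% in E12 4. In preMegE the share was 2.31 to 3.99% in 5 libraries and 8.33% in KI 1. In MkP it was 1.76 to 2.93% in 7 libraries, 9.98% in KI 5 and 7.47% in KI 6. The highest share of each population therefore belonged to a library that stands apart, and the preMegE libraries lay above all LTHSC libraries once E12 4 was left out.

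**Figure D1:**
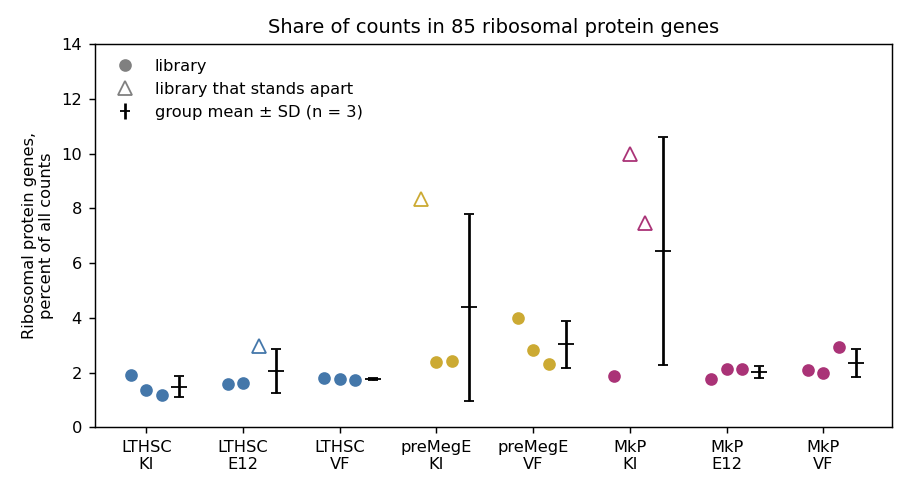
Share of all counts (percent, vertical axis) held by the 85 cytosolic ribosomal protein genes in each of the 24 libraries, by population and genotype, with group means ± SD (n = 3) as bars and libraries that stand apart as open triangles. The libraries that stand apart reach 2.99% in LTHSC, 8.33% in preMegE and 9.98% in MkP.

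By group, the share was 1.49% ± 0.379 (SD, n = 3) in LTHSC KI, 2.06% ± 0.801 in E12 and 1.76% ± 0.0298 in VF. It was 4.38% ± 3.42 in preMegE KI and 3.04% ± 0.862 in preMegE VF. The SD of preMegE KI comes from KI 1, as the other libraries of that group were at 2.38 and 2.43%. On a scale per gene length (TPM, counts divided by gene length and scaled to equal library size) the members held 4.08% ± 0.575 (SD, n = 8) of LTHSC, 6.35% ± 1.51 (n = 5) of preMegE and 5.24% ± 0.922 (n = 7) of MkP without the 4 libraries. With them the means were 4.275% ± 0.803 (n = 9), 7.53% ± 3.19 (n = 6) and 7.23% ± 4.16 (n = 9). The ratio of summed TPM of large to small subunit genes was 1.10 to 1.25 in the 20 libraries and 0.960 to 1.16 in the 4.

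The members are short. Their median length in the deposited table was 725 bases against 2779 for the other genes that passed the filter, and 64 of the 85 were shorter than 1000 bases, against 9.23% of those genes. Deposited lengths join all exons, so Rps15a (5134 bases) and Rps20 (3446 bases), which code for short proteins, look long there. Per length, Rpl35 (3559 TPM) and Rps14 (3364) were among the 3 members of highest mean level over all libraries. The lowest, of those that passed the filter, were Rpl3l (0.248), Rpl39l (0.881) and Rpl28 (4.60).

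Rpl28 is a core protein of the large subunit, and many of these genes have processed copies elsewhere in the genome. Of 82 members with a coding transcript and a value, 78 shared at least 1 stretch of 50 bases with an annotated pseudogene, and the median member shared 51.7% of its 50-base stretches. Rpl28 shared 50.5%, and the cause of its low level was not tested. The 10 members of lowest TPM shared a median of 49.8% and the 10 of highest TPM 30.5%, with a Spearman correlation of −0.25 across genes, which are not independent. How reads that match several places were counted is not given in the sources used here, so levels of single members are uncertain.

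The preMegE libraries held more ribosomal protein mRNA than LTHSC. With KI and VF averaged, 77 of the 84 tested members were higher in preMegE and 0 lower (edgeR quasi-likelihood test, Benjamini-Hochberg adjusted p under 0.05 over all genes), where 21.3% of all genes tested were higher. The median log2 difference was 1.96 over the members, 1.84 for the large and 2.02 for the small subunit, and −0.02 over all genes. Without the 4 libraries, 75 were higher and 0 lower, against 23.5% of all genes, and the median was 1.03, 0.94 for the large and 1.08 for the small subunit. The difference of large and small subunit medians was not tested. E12 libraries of LTHSC count in the CPM ranges that follow. They enter the fitted preMegE difference only through filter, scaling and spread.

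The stalk of the large subunit, which recruits elongation factors, is built from Rplp0 and dimers of Rplp1 and Rplp2. Rplp0 (Entrez Gene 11837, chromosome 5, 115559467 to 115563729) had a lowest, median and highest level of 739, 1016 and 1231 CPM in 8 LTHSC libraries and 1680, 1928 and 2451 in 5 preMegE libraries. Every one of those preMegE libraries lay above every LTHSC library, and the libraries that stand apart were higher still, at 2614 in LTHSC E12 4 and 5291 in preMegE KI 1. The log2 difference was 1.31 (SE 0.34, adjusted p = 0.0047, edgeR), and 0.93 (SE 0.14) without the 4. Rplp2 (chromosome 7, 141447651 to 141451359) ran from 21.6 to 42.2 CPM in LTHSC and from 63.0 to 244 in preMegE without the 4 libraries, where the groups did not overlap and preMegE VF 1 was highest. LTHSC E12 4, at 96.5 CPM, lay within the preMegE range, and preMegE KI 1 was at 958. Its log2 difference was 2.74 (SE 0.65), and 1.44 without the 4. Rplp1 rose by 2.35 and, without the 4, by 1.13 on the log2 scale.

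Rpsa (Entrez Gene 16785, chromosome 9, 120127766 to 120132369), a small subunit protein also known as a laminin receptor precursor, had 45.8, 69.7 and 120.5 CPM as its lowest, median and highest level in LTHSC without the 4 libraries. In preMegE these were 147, 157 and 192 CPM, which did not overlap with LTHSC. LTHSC E12 4, at 194 CPM, lay above those 5 preMegE libraries, and preMegE KI 1 was at 678. The log2 difference was 1.85 (SE 0.43, edgeR adjusted p = 0.0019), and 1.24 (SE 0.15) without the 4. The largest called differences were those of Rps27l (3.08), Rpl38 (2.99), Rpl41 (2.92), Rps28 (2.90) and Rps21 (2.76). Leaving out the 4 libraries brought them to 1.78, 1.53, 1.59, 1.48 and 1.44 on the log2 scale, and all 5 were still called.

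**Figure D2:**
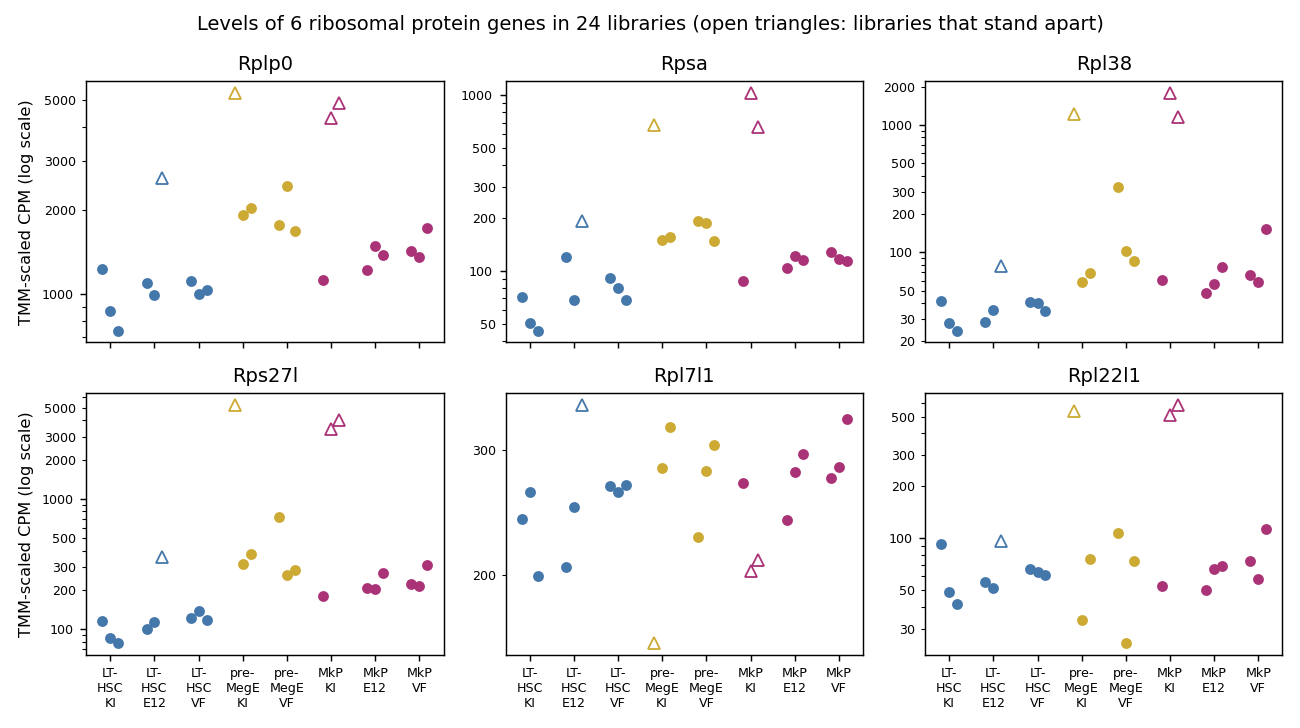
Levels (CPM of TMM-scaled libraries, log axes) of 6 ribosomal protein genes in every library, by population and genotype, with libraries that stand apart as open triangles. Rplp0 separates preMegE from LTHSC without the libraries that stand apart, Rps27l reaches 5228 CPM in preMegE KI 1, and Rpl7l1 stays between 160 and 348 CPM in all 24.

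The paralogues did not move as a block. Rps27l (Entrez Gene 67941, chromosome 9, 66944624 to 66949522), a p53-responsive relative of Rps27, went from 78.7 to 138 CPM in LTHSC to 262 to 728 CPM in preMegE without the 4 libraries. Rpl7l1 (Entrez Gene 66229, chromosome 17, 46773907 to 46782656), which works in large subunit assembly, had medians of 256 and 284 CPM in ranges that overlapped. Its log2 difference was 0.08 (SE 0.19, edgeR adjusted p = 0.779). Rpl22l1 (Entrez Gene 68028, chromosome 3, 28805508 to 28807424), which can take the place of Rpl22 in the ribosome, had 41.7, 58.4 and 91.9 CPM in LTHSC and 24.9, 73.9 and 107 in preMegE without the 4 libraries. The preMegE range enclosed that of LTHSC, and the log2 difference was 0.97 (SE 0.53, adjusted p = 0.154, edgeR) with the 4 libraries and −0.08 (SE 0.31, adjusted p = 0.862) without them. Its parent Rpl22 was called at 1.04 (SE 0.41) with the 4 libraries and had 0.24 (SE 0.17, adjusted p = 0.253, edgeR) without them. In all, the members that did not pass were Rpl7l1, Rpl21, Rpl22l1, Rpl39l, Rpl28, Rpl3l and Rps4l, and without the 4 also Rpl22 and Rpl32l.

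Of the 84 members, 67 had every preMegE library above every LTHSC library of the shared genotypes, both with the libraries that stand apart (12.8% of all genes) and without them (15.7%). Leaving out preMegE KI 1 alone took the called members from 77 to 43 (18.3% of all genes higher), with a median of 1.08.

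Genes listed for Diamond-Blackfan anaemia moved with the rest. All 18 were higher in preMegE than in LTHSC (median log2 difference 2.20, where 21.3% of all genes were higher), and all 18 without the 4 libraries (median 1.18, 23.5% of all genes). Rps19, the gene mutated most often in that disease, had 266, 315 and 451 CPM as lowest, median and highest level in LTHSC and 419, 532 and 1310 in preMegE without the 4. The LTHSC and preMegE ranges overlapped through LTHSC KI 1. Its log2 difference was 2.06 (SE 0.59), and 0.92 (SE 0.23) without the 4 libraries. Rpl5 and Rpl11, which form the 5S particle that holds back Mdm2, differed by 1.82 (SE 0.44) and 1.87 (SE 0.50), and by 1.15 and 0.94 without the 4.

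The wider machinery that makes and runs ribosomes was higher in preMegE too. Of 72 ribosome biogenesis genes, 54 were higher and 0 lower (median 0.99), and 64 and 0 without the 4 libraries (median 0.90). Of all genes 21.3% were higher with all libraries, and without the 4 libraries 23.5% were higher and 26.3% lower, against which the counts of the lists that follow are read. Examples without the 4 are the nucleolar proteins Ncl (0.96, SE 0.14), Fbl, the methyltransferase of box C/D particles (1.26, SE 0.16), and Nop56 (1.09, SE 0.13). Of 20 genes of RNA polymerase I and its factors, which transcribe ribosomal RNA, 12 were higher and 1 lower without the 4, with Polr1a at 0.76 (SE 0.16) and Taf1b at −0.41 (SE 0.14). Of 22 translation factors and TOP mRNAs, 15 were higher and 1 lower, Pabpc4 at 1.53 (SE 0.17) and the helicase Eif4a2 at −0.94 (SE 0.17). Fau and Rack1, ribosomal proteins that carry other symbols, were both called, at 1.07 and 1.27. Among 20 regulators of ribosomal protein supply, 10 were higher and 2 lower without the 4. Myc, a driver of ribosome production, was at 1.26 (SE 0.20), its relative Mycn at −1.92 (SE 0.15), and the p53 target Cdkn1a at 1.73 (SE 0.32).

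Short genes of other machines showed the same direction. Mitochondrial ribosomal protein genes were higher in 72 of 78 cases without the 4 libraries (median 1.03) and nuclear respiratory chain subunits in 73 of 74 (median 1.27), against 23.5% of all genes (median −0.11). A trend on gene length, of each level's deviation from the gene's mean over libraries, was estimated per library from non-member genes. Its removal took the preMegE median of the members from 1.96 to 0.80. Then 61 members were higher and 1 lower (27.9% and 17.0% of all genes, median of all genes 0.15). The lower member was Rpl22l1, at −0.70 (adjusted p = 0.018, edgeR). With the length trend removed and the 4 libraries left out, 61 were higher and 1 lower (29.7% and 19.9% of all genes) and the median was 0.62. Scaling by library size alone moved the median of all genes to −0.41 and gave 66 members higher (11.4% of all genes) with a median of 1.34.

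**Figure D3:**
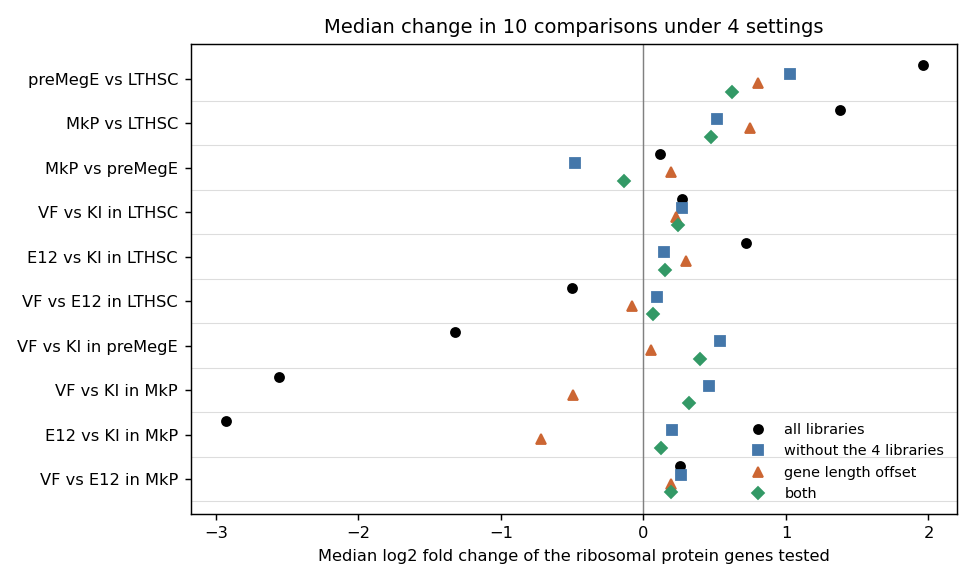
Median log2 difference of the ribosomal protein genes that passed the filter in each comparison (horizontal axis), for all libraries, without the 4 libraries that stand apart, with the gene length trend removed, and with both. The preMegE against LTHSC median is 1.96 with all libraries and 0.62 with both changes, while the comparisons with KI in preMegE and MkP go from −1.32, −2.56 and −2.93 to 0.53, 0.46 and 0.20 without the 4.

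MkP held more ribosomal protein mRNA than LTHSC, by less. With KI, E12 and VF averaged, 77 of 84 members were higher and 0 lower (17.0% of all genes were higher), with a median log2 difference of 1.38. Without the 4 libraries 46 were higher and 0 lower (18.6% of all genes), with a median of 0.52, and without preMegE KI 1, MkP KI 5 and MkP KI 6 alone, 7 were higher (11.9%) with a median of 0.35. These settings differ only in LTHSC E12 4. With all libraries, 0 members had the populations separated (1.40% of all genes), and without the 4, 23 lay higher in every MkP library (11.5%). With the length trend removed 73 were higher (28.5% of all genes) at a median of 0.75, and with both changes 63 (28.8%) at 0.48.

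Rplp0 was at 1126, 1379 and 1725 CPM (lowest, median, highest) in the 7 MkP libraries other than KI 5 and KI 6, between the LTHSC and preMegE medians, and overlapped both at its ends. Its log2 difference to LTHSC was 0.73 (SE 0.28, edgeR adjusted p = 0.0459), and 0.34 (SE 0.13) without the 4. Rpsa, at 87.3, 115 and 128 CPM in the same libraries, differed by 1.28 (SE 0.34), and by 0.45 (SE 0.14) without the 4. Rpl38, at 47.9, 60.9 and 153 CPM against 24.4 to 41.3 in LTHSC, did not overlap with it without the 4 libraries. LTHSC E12 4, at 77.8 CPM, lay within the MkP range, and MkP KI 5 and KI 6 were at 1782 and 1156. Rpl38 had the largest called difference, 2.21 (SE 0.55), or 1.00 without the 4. Rpl41, Rps27l, Rps28 and Rplp2 followed at 2.03, 2.01, 1.98 and 1.94. Without the 4, Rps28 had 0.65 (SE 0.31, edgeR adjusted p = 0.107) and was no longer called.

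Rplp1, Rps19, Rps14 and Rpl35 likewise had adjusted p-values of 0.212, 0.166, 0.203 and 0.469 (edgeR) in MkP against LTHSC without the 4 libraries. Of the 18 Diamond-Blackfan genes 18 were higher with all libraries (17.0% of all genes) and 9 without the 4 (18.6%). The biogenesis list moved the other way, from 34 of 72 higher to 54 of 72 without the 4, against the same shares of all genes. Rpl4, one of the longer members, of the polypeptide exit tunnel, had 0.47 (SE 0.20, adjusted p = 0.0778, edgeR) with them and 0.46 (SE 0.12, adjusted p = 0.0041) without them. Rpl7l1 (0.05) and Rpl22l1 (0.96, adjusted p = 0.0936) were not called, nor were they without the 4 (0.16 and 0.07).

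**Figure D4:**
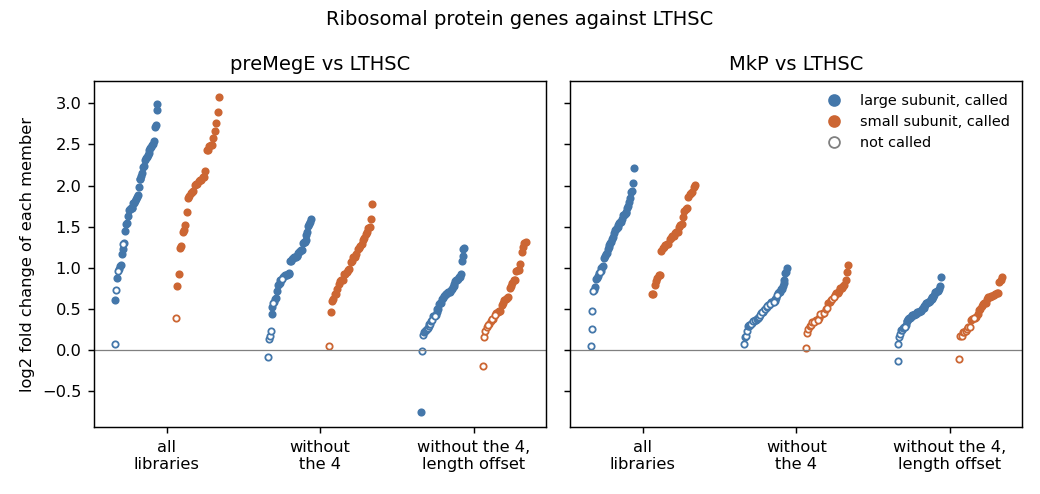
Log2 difference of each ribosomal protein gene tested (points, ordered by size within each set, Rpl3l and Rpl39l left out) in preMegE and MkP against LTHSC, with all libraries, without the 4 libraries that stand apart, and with the gene length trend removed as well; filled points passed the edgeR threshold and open points did not. Differences shrink from set to set, and the filled point at −0.75 in preMegE is Rpl22l1.

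Between MkP and preMegE, 0 of 84 members were called in edgeR's quasi-likelihood test (7.54% of all genes were called), 0 had an unadjusted p under 0.05, and DESeq2 called 0 (11.6% of all genes). The median was 0.11. Without the 4 libraries 11 members were lower in MkP and 0 higher (8.61% of all genes were lower), with a median of −0.48. They included Rpl7a, Rpl10, Rpl19, Rpl24, Rpl26, Rpl29, Rplp0, Rpsa and Rps27l. Rplp0 fell by 0.58 on the log2 scale (SE 0.17, edgeR adjusted p = 0.023), and Rpsa by 0.67 (SE 0.19). Only MkP KI 4 is then left in its group, and the fit assumes that it varies like the other groups. Leaving out preMegE KI 1 alone gave 6 members higher in MkP (5.68% of all genes) and a median of 1.04.

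No genotype comparison called a ribosomal protein gene in edgeR's quasi-likelihood test at an adjusted p under 0.05. In LTHSC, VF against KI called 0 of 82 members (0.0919% of all genes were called), 0 had an unadjusted p under 0.05, and DESeq2 called 0 (1.77% of all genes). The median was 0.27, and 72 of 82 fitted differences were above 0, a count given without the share of all genes above 0. Rpl23, the member of smallest p, was at 168.17, 124.30 and 102.97 CPM in KI and 213.68, 201.99 and 199.27 in VF. The genotypes did not overlap. The log2 difference was 0.60 (SE 0.33, adjusted p = 0.706, edgeR). Of the 82 members, 8 had VF wholly above KI (17.2% of all genes) and 1 wholly below (12.9%).

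E12 against KI in LTHSC called 0 of 82 members (0.0424% of all genes), with 26 at an unadjusted p under 0.05 and 1 called higher by DESeq2 (1.88% of all genes). The count of 26 is given without the share of all genes at that unadjusted p. The median was 0.72, and 0.14 without E12 4. Rpsa was at 120.53, 68.06 and 193.65 CPM in E12 11, 2 and 4 against 70.91, 50.59 and 45.77 in KI. E12 2 lay within the KI range. The log2 difference was 1.20 (SE 0.36, adjusted p = 0.260, edgeR), and 0.71 (SE 0.25, adjusted p = 0.267) without E12 4. VF against E12 called 0 of 82 (0.0353% of all genes), with 1 at an unadjusted p under 0.05 and 0 by DESeq2 (1.24% of all genes). Its median of −0.50 became 0.10 without E12 4, the library with the high neutrophil and monocyte markers.

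In preMegE, VF against KI called 0 of 82 members (0.0151% of all genes), 0 at an unadjusted p under 0.05 and 0 by DESeq2 (0.514% of all genes). Rps27l was at 5228, 315 and 380 CPM in KI 1, 2 and 3 and at 728, 262 and 282 in VF 1, 2 and 3. KI 1 was far above all others and the remaining libraries overlapped. Its log2 difference was −2.24 (SE 1.11, adjusted p = 0.642, edgeR), and 0.29 (SE 0.41) without KI 1. The median over the members was −1.32 with KI 1, 0.53 without it, and 0.06 with the length trend removed and KI 1 kept.

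In MkP the KI group held the largest spread. Rpl35, a member of the polypeptide exit tunnel rim, was at 329, 13747 and 8608 CPM in KI 4, 5 and 6, at 304, 337 and 392 in E12, and at 342, 305 and 615 in VF. KI 4 lay among the E12 and VF libraries, with KI 5 and KI 6 far above. VF against KI called 0 of 83 members (0% of all genes, with 74 members at an unadjusted p under 0.05), while DESeq2 called 74 lower (15.5% of all genes). The log2 difference of Rpl35 was −4.28 (SE 1.09, adjusted p = 0.0755, edgeR), and 0.33 (SE 0.35, adjusted p = 0.792) without KI 5 and KI 6. E12 against KI called 0 (0% of all genes, 78 members at an unadjusted p under 0.05), and DESeq2 called 78 lower (16.7% of all genes). The smallest adjusted p of E12 against KI was 0.0616 (edgeR, Rpl3l and Rpl39l left out). The share of all genes at an unadjusted p under 0.05 is not given here, so the unadjusted counts are not read as particular to the members. Without the filter on low counts edgeR called 56 lower in E12 against KI (5.69% of all genes). The medians of −2.56 and −2.93 became 0.46 and 0.20 without KI 5 and KI 6. KI 4 is then the lone library of its group and is assumed to vary like the other groups. Leaving out KI 4 in their place gave 80 members lower in both comparisons (23.7% and 24.3% of all genes), at medians of −3.06 and −3.43.

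VF against E12 in MkP called 0 of 83 members in edgeR (0% of all genes), with 0 at an unadjusted p under 0.05. DESeq2 called 0 (0.0670% of all genes). Neither group holds a library that stands apart, but the edgeR spread was estimated over all MkP libraries. Those include the KI libraries that stand apart, so the edgeR p-values and calls of this comparison are not free of them. The median was 0.26, and 80 of 83 fitted differences were above 0, again without the share of all genes above 0. Rps21 had 0.86 and Rpl32l 0.70, each with an adjusted p of 1 in edgeR. Without the 4 libraries, none of which is in either group, these log2 differences were 0.85 and 0.69. Raw counts in VF 1, 2 and 3 were 865, 642 and 2122 for Rps21 and 1282, 1135 and 3488 for Rpl32l. In E12 2, 4 and 5 they were 583, 679 and 943 for Rps21 and 1040, 1132 and 1893 for Rpl32l. The median of the members ranged from 0.041 to 0.39 when 1 library at a time was left out. MkP VF 3 was the highest VF library for both Rpl35 and Rpl38. For the 18 Diamond-Blackfan genes, edgeR's quasi-likelihood test called 0 in each of the 7 genotype comparisons, with and without the 4 libraries. DESeq2 called all 18 lower in VF and in E12 against KI in MkP with all libraries (15.5% and 16.7% of all genes), and 0 in the other genotype comparisons.

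The test of whether a genotype difference changed between populations called 0 of 84 members in each of 4 cases. The medians were −1.53 for VF against KI in preMegE against LTHSC (0% of all genes called), −2.76 in MkP against LTHSC (0.0134%), −1.16 in MkP against preMegE (0%) and −3.47 for the E12 difference to KI between MkP and LTHSC (0.0334%). Unadjusted p-values under 0.05 numbered 1, 71, 0 and 78, given without the share of all genes. The smallest adjusted p-values were 0.906, 0.254, 0.935 and 0.0568 (edgeR, Rpl3l and Rpl39l left out), the last just over the threshold. DESeq2 called 0, 2, 0 and 73, the latter all lower. DESeq2 called 0.0735% of all genes in the first and 0.107% in the third test, and called 0.588% in the second and 12.1% in the last lower. Without the 4 libraries the medians were 0.22, 0.23, −0.03 and 0.01. Leaving out MkP KI 4 alone gave 74 and 78 lower members in the MkP against LTHSC tests (9.69% and 15.7% of all genes).

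Against the other libraries of its population, the median member was 7.23-fold higher in preMegE KI 1, 9.52-fold in MkP KI 5, 8.60-fold in MkP KI 6 and 2.41-fold in LTHSC E12 4. The libraries that stand apart were left out of this reference, so MkP KI 5 and KI 6 were not set against each other. Among the remaining libraries preMegE VF 1 (1.86-fold) and MkP VF 3 (1.54-fold) were highest. In the first 3 libraries the excess fell with gene length. The Spearman correlation across members was −0.68, −0.59 and −0.69 with the deposited length, and −0.85, −0.76 and −0.72 with coding length over 82 members. In LTHSC E12 4 it was −0.08 and 0.08. The fall was not confined to libraries that stand apart, with −0.62 and −0.70 in preMegE VF 1 and −0.43 and −0.59 in MkP VF 3. Both of these stay in the results without the 4 libraries. The remaining preMegE and MkP libraries had values above 0, except MkP E12 5 (−0.21 and −0.10). Members are not independent, so these are descriptions.

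Averaged over preMegE KI 1, MkP KI 5 and MkP KI 6, Rpl35 was 23.6-fold, Rps28 18.45-fold, Rps27 17.8-fold, Rpl38 17.2-fold and Rpl41 16.5-fold above the same reference. Rpl7l1 (0.674-fold), Rpl3l (1.00-fold), Rpl4 (1.27-fold), Rpl3 (1.43-fold), Rps2 (2.31-fold) and Rps6 (2.49-fold) were the lowest of the members. Length did not order all members, since Rpl5 (2019 bases) was at 6.21-fold and Rpsa (1861 bases) at 6.07-fold, while Rpl28 (496 bases) was at 2.83-fold. Rpl38 alone went from 24.4 to 324 CPM in the other libraries of all populations to 1215, 1782 and 1156 CPM in preMegE KI 1, MkP KI 5 and MkP KI 6.

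**Figure D5:**
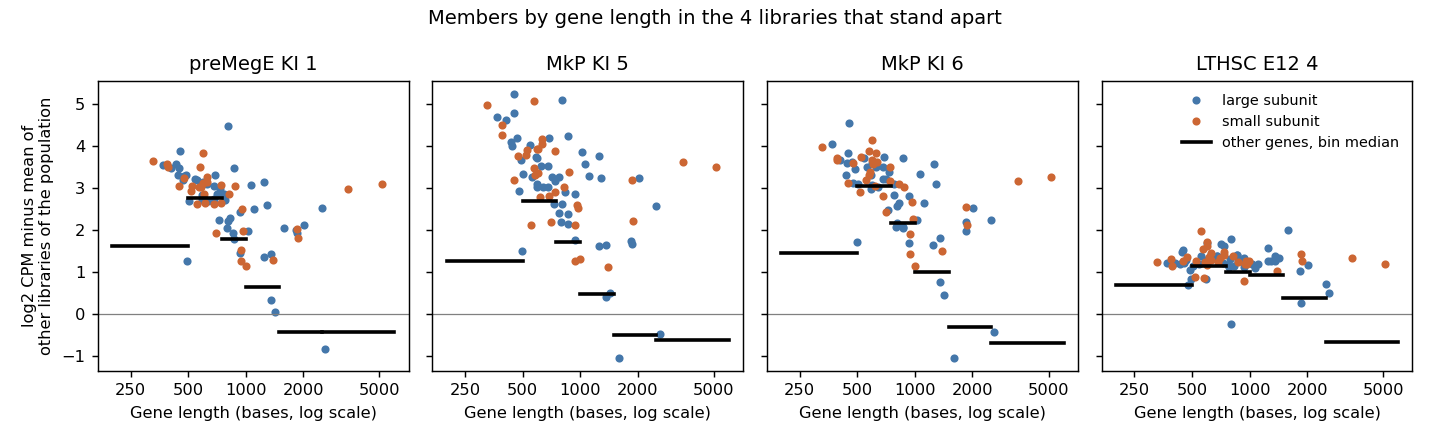
Log2 deviation of each ribosomal protein gene (points) from the other libraries of its population, without those that stand apart, against gene length in bases (log axis). Each library that stands apart is shown, and black bars are medians of all other genes in bins of length. Deviations fall with length in preMegE KI 1, MkP KI 5 and MkP KI 6 and not across members in LTHSC E12 4, where other genes of 500 to 750 bases have a median of 1.16.

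Other genes varied with length as well, though not evenly at the short end. Over non-member genes the Spearman correlation of deviation with length was −0.24 in preMegE KI 1, −0.24 in MkP KI 5 and −0.35 in MkP KI 6. In LTHSC E12 4, where members showed little correlation, it was −0.47 over the non-member genes. Non-member genes of 500 to 750 bases had median log2 deviations of 2.77, 2.69 and 3.05 in preMegE KI 1, MkP KI 5 and MkP KI 6, against 3.02, 3.38 and 3.38 for members of that length. Non-members over 2500 bases had −0.43, −0.60 and −0.67. At the short end, non-members under 500 bases had 1.62, 1.26 and 1.45 and members of that length 3.49, 4.19 and 3.63. In LTHSC E12 4, non-members of 500 to 750 bases had 1.16 and members 1.35, and non-members over 2500 bases had −0.66. Respiratory chain subunits were higher by 3.27, 3.43, 3.68 and 1.48 in the same 4 libraries, and mitochondrial ribosomal proteins by 1.78, 1.63, 2.20 and 1.37.

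Over the 24 libraries, spread differed between members. The median SD of log2 CPM was 1.25 with the libraries that stand apart and 0.583 without them. The largest SDs were those of Rpl39l (1.81), Rpl38 (1.74) and Rps28 (1.73), and the smallest those of Rpl7l1 (0.264), Rpl3 (0.402) and Rpl4 (0.457). Across members the SD had a Spearman correlation of −0.66 with gene length, and −0.57 without the 4 libraries.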

How the data were processed

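Raw counts per Entrez gene, with gene lengths, were deposited by the authors. The submitters' processing notes name STAR 2.7.0c, featureCounts, Subread 1.6.4 and mm10. Annotation, strand and treatment of multiply mapped reads are not given in the sources used here. Libraries were Smart-seq2 of sorted cells, per the labels' protocols. Columns named MEP were taken as preMegE. The 16 rows without a symbol (at most 0.0132% of counts) were left out, 0 value columns were unmapped, and all 276 pairs of libraries differed by more than sampling noise (chi-square over degrees of freedom at least 20.7).

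Differences were fitted in R 4.3.3 by edgeR 4.0.16 (low counts removed by filterByExpr, TMM scaling, robust quasi-likelihood, 2-sided, Benjamini-Hochberg threshold 0.05 over all genes). Genotypes were compared within each population, and populations, averaged over shared genotypes, over all 24 libraries. An SE is the log2 difference divided by the square root of F. CPM uses TMM factors over all libraries. For the length trend, each gene's mean log2 CPM (prior count 2) over the fitted libraries was subtracted. A loess (span 0.3) of this deviation on log2 length was then fitted per library over non-member genes. DESeq2 1.42.0 and limma 3.58.1 were also used. The pipeline was tested on simulated data. Smart-seq2 reads carry no molecular identifiers.

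Members and lists were chosen with earlier results of these data known. Named genes are the stalk genes and Rpsa, the paralogues with their parents, the Diamond-Blackfan genes, up to 5 members per direction of largest called change (or the 3 of smallest p), and the 3 members of highest and lowest level per length and SD. Rps27, Rps2, Rps6 and Rpl21 were named after their values were seen, as were members counted as lower in MkP than preMegE. A few named genes are not reported here. Pairing by replicate number was not used.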

Additional observations from a re-analysis of the deposited data

How the results depend on the processing

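With the 4 libraries that stand apart left out, the members called were 46 for MkP against LTHSC and 11 for MkP against preMegE, and 7 for MkP against LTHSC with LTHSC E12 4 kept. DESeq2 called 1 member for E12 against KI in LTHSC, 74 and 78 for VF and E12 against KI in MkP, and 2 and 73 for their differences between MkP and LTHSC. No filter gave 56 for E12 against KI in MkP (all lower, 5.69% of all genes). The medians without the 4, and with LTHSC E12 4 kept, were 0.53 and 0.53 (VF against KI, preMegE), 0.46 and 0.46 (VF against KI, MkP), 0.20 and 0.20 (E12 against KI, MkP), 1.03 and 1.04 (preMegE against LTHSC), and 0.52 and 0.35 (MkP against LTHSC); VF against E12 in LTHSC gave 0.10 without the 4. The length offset gave 0.055, −0.49, −0.72 and 0.80 for the first 4, and with the 4 left out 0.39, 0.32, 0.12 and 0.62, with 0.48 for MkP against LTHSC and 0.066 for VF against E12 in LTHSC. Shares without the 50 most abundant other genes were 1.96% in LTHSC VF and 2.27% in MkP E12. Library size alone brought the median of all genes to −0.41 (preMegE against LTHSC), −0.28 (MkP against LTHSC), 0.54 and 0.55 (VF and E12 against KI in MkP). The cause of these changes was not tested.

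Of single members, Rpl22l1 in preMegE against LTHSC went to −0.70 (length offset), −0.082 (without the 4), −0.076 (E12 4 kept) and −0.75 (both), and in MkP against LTHSC to −0.061, −0.031 (E12 4 kept) and −0.13. Library size alone gave −0.27 and −0.24 for Rpl7l1 in preMegE and MkP against LTHSC, and −0.079 for Rpl3 in MkP. Without the 4, or with E12 4 kept, and then with the length offset as well, Rps27l in preMegE VF against KI had 0.29 and 0.07, Rpl35 in MkP VF against KI 0.33 and 0.045, and Rpl31 in MkP E12 against KI 0.046 and 0.023. With both changes Rpl23 had 0.014 in the VF difference of preMegE against LTHSC, and Rpsa 0.029 in that of MkP against LTHSC.

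Leaving out 1 library at a time, the members called ranged from 43 to 78 (preMegE against LTHSC), 58 to 79 (MkP against LTHSC), 0 to 6 (MkP against preMegE), 0 to 1 (E12 against KI, LTHSC), 0 to 80 (VF and E12 against KI, MkP), and 0 to 74 and 0 to 78 for their differences between MkP and LTHSC. In the last, 36 were called without LTHSC E12 11, 70 without E12 2, and 76, 66 and 60 without preMegE KI 1, 2 and 3. Shares of all genes called in most of these refits are not given here, so the counts are not read as particular to the members. The medians ranged from −0.73 to 0.10 for VF against E12 in LTHSC and from −1.78 to 0.53 for VF against KI in preMegE. The single genes ranged from −0.026 to 1.22 (Rpl22l1, preMegE against LTHSC), −0.012 to 0.20 and −0.0055 to 0.13 (Rpl7l1, preMegE and MkP against LTHSC), −0.0005 to 0.95 and −1.74 to 3.09 (Rpl32l and Rpl39l, VF against E12 in MkP), and −2.88 to 0.29 (Rps27l, VF against KI in preMegE).

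Same-numbered deviations correlated at −0.00685 to 0.0109 between LTHSC KI and VF, 0.0539 to 0.256 between preMegE KI and VF, and 0.0641 to 0.110 between LTHSC and MkP VF. Since not every pair was over 0.1, the numbers were not taken to pair the libraries. With the replicate number as a block, 1 member was called higher for VF against KI in LTHSC (2.34% of all genes) and 2 for MkP against preMegE (3.62%). The medians became 0.15 for VF against E12 in LTHSC and −1.53 for E12 against KI in MkP, Rpl7l1 had −0.10 in MkP against LTHSC, and Rpl12 0.12 in VF against E12 in LTHSC. In that check 3 of 6 LTHSC, 5 of 6 preMegE and, between LTHSC and MkP VF, 6 of 6 libraries correlated best with their own number. The block, added after seeing the data to the VF difference of preMegE against LTHSC, called 0 members, with 2 at an unadjusted p under 0.05. No paired analysis was possible because of too few shared numbers for VF comparisons in MkP and the other differences of differences.

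Rpl3l and Rpl39l, at means of 0.248 and 0.881 TPM, and Rpl10l, which did not pass the filter, are at the limit of this depth.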
